A study of Mus musculus with 6 samples.

Results

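The genes of glucose uptake, glycolysis, lactate and pyruvate handling and glycogen turnover were examined in the left ventricle of littermate control (LC) animals and of cardiomyocyte-specific NCoR1 knockout (CMNKO) mice. They were 34 named genes, listed by function with no cutoff on a measured value, though with earlier results of these data known, and 33 of the 34 were in the table of 17121 genes. Aldoc, the brain-type aldolase, had no row and was not analysed here. All 33 passed the filter on low counts, which kept 13040 genes in all.

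There were 3 LC mice (LC 15, LC 25 and LC 26) and 3 CMNKO mice (CMNKO 16, CMNKO 17 and CMNKO 18), each 2 months old and on the C57BL/6 background (the C57BL6/J substrain in the study's methods), with 1 RNA-sequencing library per mouse. CMNKO mice came from a cross of mice with a floxed Ncor1 gene and mice carrying Cre under the αMHC promoter, which is active in cardiomyocytes, so that other cells of the ventricle keep the gene. The sources used here give neither the alleles that the LC mice carried nor the sex of the sequenced mice. NCoR1 is a corepressor that brings histone deacetylases to transcription factors, and the comparison asks which transcripts differ when cardiomyocytes lack it.

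The adult heart burns mainly fatty acids, and takes up glucose through GLUT1 and the insulin-responsive GLUT4. Hexokinase traps glucose as glucose 6-phosphate, which is stored as glycogen or broken down through phosphofructokinase, aldolase and enolase to pyruvate. Lactate dehydrogenase interconverts pyruvate and lactate, and the mitochondrial pyruvate dehydrogenase complex commits pyruvate to oxidation unless a pyruvate dehydrogenase kinase (PDK) switches it off by phosphorylation. Many of these steps have a muscle isozyme and a more widely expressed one.

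Library totals ranged from 6319488 to 8752609 counts. Levels are given as TMM-scaled CPM, the reads of a gene relative to all counted reads of its library, and CMNKO was compared with LC by edgeR's quasi-likelihood test, with p-values adjusted by the Benjamini-Hochberg method over the 13040 genes tested and a threshold of 0.05. Ncor1 itself, the deleted gene, stood at 111, 102 and 90.7 CPM in the LC group. In the CMNKO group it stood at 50.5, 51.3 and 42.4 CPM, a log2 fold change of -1.07 (adjusted p = 0.00845). Ncor1 was called in 13 of 16 settings of the fit, and no gene at all was called without CMNKO 16 or CMNKO 17. The 9 cardiomyocyte markers summed to 68499 to 86179 CPM in LC ventricles and to 74281 to 83093 CPM in CMNKO ventricles, and all 9 were detected and tested with none called. The library numbers in the labels form 2 series, the first with LC 15 and all CMNKO mice and the second with LC 25 and LC 26 only. Mitochondrially encoded genes took 36.4% and 33.1% of the counts of LC 25 and LC 26, against 26.4% to 28.1% in the other 4 libraries. Results that rest on LC 25 and LC 26 are therefore also given with the library series as a term or within the first series. LC 15 is the only control of that series. In whole ventricles, fewer cells of a type and less RNA per cell cannot be told apart.

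Of the 33 genes, 1 was called, and it was lower in CMNKO mice. This was Pdk1, a kinase that inactivates pyruvate dehydrogenase. Over all genes tested, 0.268% were called higher and 0.337% lower. At an unadjusted p under 0.05 there were 4 higher and 6 lower among the 33 genes, against 2463 of all 13040. The median log2 fold change was 0.10, with 20 genes above 0 and 13 below, beside a median of 0.0012 over all genes. The groups did not overlap for 9 genes, of which 2 were higher in CMNKO mice (Pfkp and Slc16a1) and 7 were lower (Tpi1, Eno1, Ldha, Ldhb, Pdha1, Pdhb and Pdk1). Among all genes, 11.2% were higher and 12.3% lower with no overlap, and the 2 of 33 higher lay below that background while the 7 of 33 lower lay above it. The summed level of the 33 genes was 15688 ± 1235 CPM in LC ventricles and 15248 ± 1122 CPM in CMNKO ventricles (SD, n = 3 and 3).

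**Figure D1:**
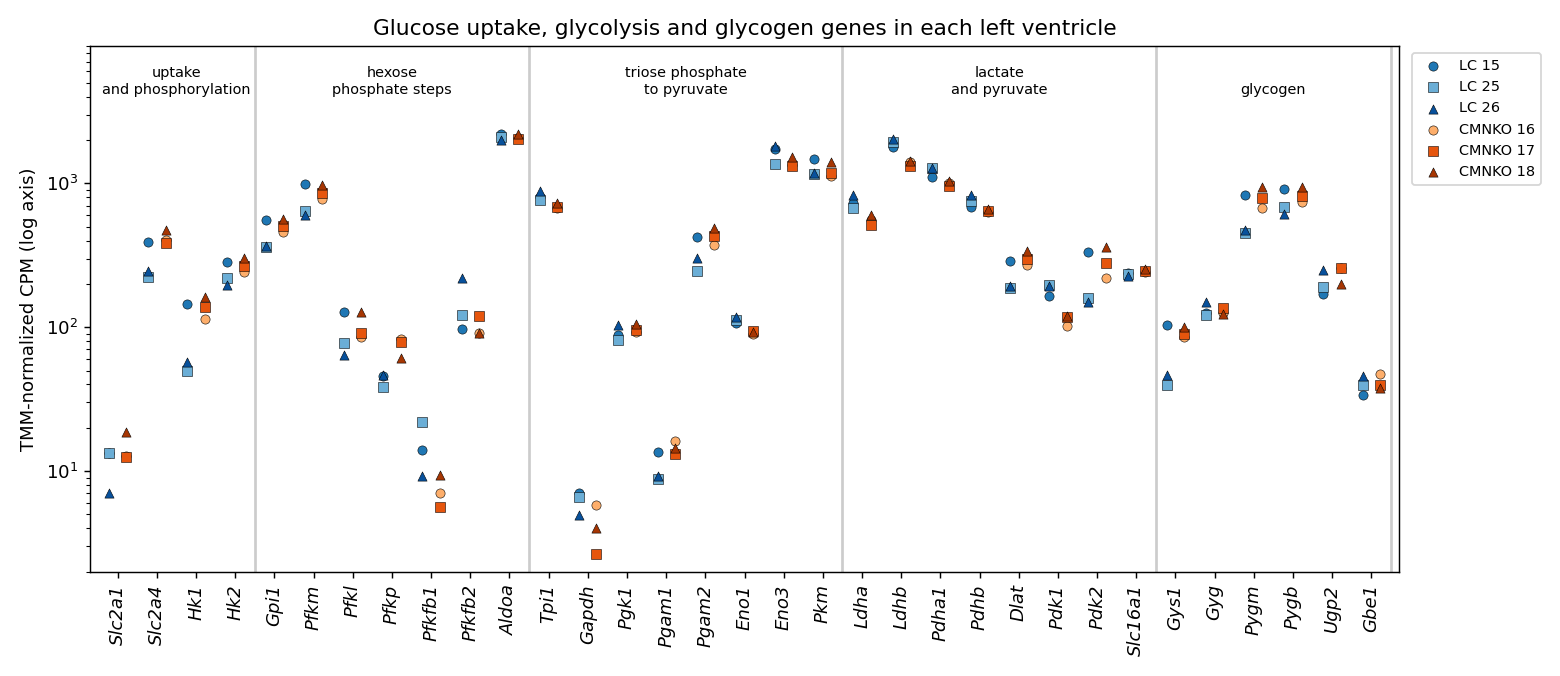
TMM-normalized CPM of 33 genes in each of the 6 mice, on a log axis, with LC mice (blue) to the left and CMNKO mice (orange) to the right of each gene and genes grouped by role. Pdk1, Ldha and Ldhb of the 3 CMNKO mice lie below those of all LC mice, while LC 15 (blue circle) lies beside the CMNKO mice for Hk1, Gys1, Pygm and Pdk2.

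Pdk1 had 165, 197 and 193 CPM in LC 15, LC 25 and LC 26, and 101, 118 and 119 CPM in CMNKO 16, CMNKO 17 and CMNKO 18. Every CMNKO mouse was below every LC mouse, and the lowest LC mouse was the one from the same library series as the CMNKO mice. The log2 fold change was -0.71 (SE 0.13, 95% interval -0.999 to -0.43), with an adjusted p of 0.0376 by edgeR's quasi-likelihood test. With the library series as a term the log2 fold change was -0.55 and was not called (adjusted p = 0.230), and the call was also lost when LC 25, LC 26, CMNKO 16, CMNKO 17 or CMNKO 18 was left out, with values from -0.64 to -0.76 and adjusted p from 0.106 to 0.216. No gene at all was called without CMNKO 16 or without CMNKO 17. Leaving out LC 15 gave -0.79 (adjusted p = 0.00119). Since LC 25 and LC 26 were then the only controls, genotype and library series cannot be told apart in that value.

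Pfkp lay just outside the threshold. It encodes the platelet-type phosphofructokinase, an isozyme of the committed step of glycolysis that is widely expressed outside muscle. Its level was 45.9, 38.5 and 46.7 CPM in LC ventricles and 82.5, 79.2 and 60.9 CPM in CMNKO ventricles, with CMNKO 18 the lowest of its group and still above every LC mouse. The log2 fold change was 0.76 (SE 0.15, 95% interval 0.43 to 1.10) and the adjusted p was 0.0515. It was 0.69 within the first series, where the adjusted p was 0.174, so that its size was close with and without LC 25 and LC 26 but its p was not. The 6 endothelial markers, all of them in the table and tested, summed to 344 to 476 CPM in LC ventricles and 529 to 638 CPM in CMNKO ventricles, none of them called, and their part in the Pfkp difference was not tested. Of the 50-base windows of the Pfkp transcript, 17.1% also occur in the transcript of Pitrm1, a mitochondrial peptidase gene. Pitrm1 had 43.5 to 48.4 CPM in LC ventricles and 41.2 to 45.8 CPM in CMNKO ventricles, a log2 fold change of -0.08 (95% interval -0.35 to 0.19).

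The promoters of these genes and of Ldha are shown because Pdk1 was the member called, Pfkp stood next to it, and Ldha is a textbook target of the hypoxia-inducible factor HIF, whose recognition core is ACGTG or GCGTG. Each is the 250 bases upstream of the start of the first RefSeq transcript listed, on the build GRCm38.p6, read 5′ to 3′ on the gene's strand. They lie at chr2:71872974-71873223 on the plus strand for Pdk1, at chr13:6648772-6649021 on the minus strand for Pfkp and at chr7:46845554-46845803 on the plus strand for Ldha. Capitals mark only the letters ACGTG on either strand, including those inside the E-box CACGTG.
Pdk1: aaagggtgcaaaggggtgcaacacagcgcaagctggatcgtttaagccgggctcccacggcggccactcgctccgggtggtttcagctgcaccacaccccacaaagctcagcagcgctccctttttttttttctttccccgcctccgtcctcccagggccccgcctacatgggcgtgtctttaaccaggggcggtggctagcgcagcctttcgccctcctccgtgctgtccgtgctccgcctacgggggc
Pfkp: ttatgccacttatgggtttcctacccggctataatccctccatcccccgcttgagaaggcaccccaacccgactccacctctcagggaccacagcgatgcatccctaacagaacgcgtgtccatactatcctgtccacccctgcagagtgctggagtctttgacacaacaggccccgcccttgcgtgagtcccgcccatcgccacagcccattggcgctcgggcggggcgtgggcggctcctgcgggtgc
Ldha: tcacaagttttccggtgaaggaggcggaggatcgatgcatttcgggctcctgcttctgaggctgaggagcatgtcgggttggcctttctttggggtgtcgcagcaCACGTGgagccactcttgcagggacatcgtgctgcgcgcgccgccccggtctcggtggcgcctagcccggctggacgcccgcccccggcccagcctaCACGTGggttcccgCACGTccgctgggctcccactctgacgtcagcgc

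In these windows the Ldha promoter held 5 matches to ACGTG, counting both strands and with 2 pairs of them overlapping in CACGTG, and the Pdk1 and Pfkp promoters held none. With GCGTG counted too, Pdk1 held 1 match, Pfkp 3 and Ldha 5. These counts cover only the printed windows. A window without ACGTG does not show that HIF leaves the gene alone. Over the genes described here with a promoter in the RefSeq table (33, Aldoc included and Slc2a4 without one), 15 (45.5%) held ACGTG in at least 1 listed promoter, against 18.5% of all 27018 genes, and 27 (81.8%) held ACGTG or GCGTG, against 41.5%. CACGTG was in 5 (15.2%) against 6.86% of all genes, the element TNAAGGTCA of the estrogen-related receptors in 0 against 1.30%, and the MEF2 motif in 2 (6.06%, Pfkfb1 and Pgam2) against 1.99%, each searched on both strands. The 27018 genes include genes without a row in the count table. A gene with several listed promoters also had more windows in which to match. The shares were not adjusted for these points or for the base composition of the promoters. These are matches of letters in a short window and describe the promoters, not the binding of a factor.

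At the level of uptake and phosphorylation, 4 of 4 genes had a positive log2 fold change and 0 were called. Slc2a4, which encodes GLUT4, had 388, 224 and 246 CPM in LC ventricles and 405, 384 and 472 CPM in CMNKO ventricles. LC 25 and LC 26 were the low ones, and LC 15 lay among the CMNKO mice. Its log2 fold change was 0.55 (SE 0.20, adjusted p = 0.172, edgeR) and shrank to 0.12 once the library series was a term. Hk1, the hexokinase found in most cell types, showed the same split more strongly, with 145, 49.7 and 57.5 CPM in LC ventricles and 115, 138 and 163 CPM in CMNKO ventricles. The log2 fold change of Hk1 was 0.72 (SE 0.33, adjusted p = 0.270) and turned to -0.07 with the series as a term. Hk2, the hexokinase of insulin-responsive muscle, stood at 285, 219 and 198 CPM in LC ventricles and 241, 265 and 305 CPM in CMNKO ventricles. Slc2a1 (GLUT1) was low, with 7.08 to 13.4 CPM in LC ventricles and 12.4 to 18.8 CPM in CMNKO ventricles, a log2 fold change of 0.39 that was 0.13 with the series as a term. Per kb of the longest protein-coding transcript, GLUT4 reached 113 CPM and GLUT1 3.46 CPM in LC mice.

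Among the hexose phosphate steps, 1 of 7 tested genes had groups apart (Pfkp) and none was called. Pfkm, the muscle phosphofructokinase, was the main isozyme per length, with 258 CPM per kb in LC mice against 24.1 for the liver isozyme gene Pfkl and 10.5 for Pfkp. Pfkm had 995, 638 and 598 CPM in LC ventricles and 772, 853 and 973 CPM in CMNKO ventricles, so that LC 15 was above all CMNKO mice and LC 25 and LC 26 were below them. Pfkl had 63.6 to 128 CPM in LC ventricles and 85.9 to 127 CPM in CMNKO ventricles, with the same 2 LC mice low. Pfkfb1, one of the enzymes that make and break fructose 2,6-bisphosphate, the activator of phosphofructokinase, stood at 14, 22 and 9.18 CPM in LC ventricles and 7.0, 5.59 and 9.42 CPM in CMNKO ventricles. CMNKO 18 overlapped LC 26, and the log2 fold change of -1.02 (SE 0.31) did not pass (adjusted p = 0.132). Pfkfb2, the heart isozyme of the same enzyme, had 97.8, 122 and 221 CPM in LC ventricles and 91.7, 120 and 90.7 CPM in CMNKO ventricles, a spread set mainly by LC 26. Its log2 fold change was -0.54 (adjusted p = 0.278) and became 0.04 with the library series as a term. Gpi1, which converts glucose 6-phosphate to fructose 6-phosphate, gave 0.25, and Aldoa, the muscle aldolase, gave 0.0048 with a 95% interval of -0.28 to 0.29.

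From triose phosphate to pyruvate, 3 of 8 genes had positive and 5 negative log2 fold changes, and 0 were called. Tpi1, triose phosphate isomerase, had 802, 766 and 886 CPM in LC ventricles and 676, 680 and 727 CPM in CMNKO ventricles. Eno1, the widely expressed enolase, had 107, 112 and 117 CPM in LC ventricles and 89.5, 93.6 and 92.7 CPM in CMNKO ventricles. The groups were apart for both, by small amounts, with log2 fold changes of -0.24 (SE 0.12, adjusted p = 0.316) and -0.29 (SE 0.11, adjusted p = 0.218). With the series as a term they were -0.21 and -0.22. Pgam2, the muscle phosphoglycerate mutase, had 421, 245 and 303 CPM in LC ventricles and 373, 431 and 487 CPM in CMNKO ventricles, again with LC 25 and LC 26 low. The log2 fold change of Pgam2 was 0.41 and fell to 0.03 with the series as a term. Pgam1, the other mutase, had 13.6, 8.85 and 9.31 CPM in LC ventricles and 16.2, 13.1 and 14.6 CPM in CMNKO ventricles, a log2 fold change of 0.47 (SE 0.20, adjusted p = 0.234) that was 0.11 with the series as a term. Eno3, the muscle enolase, gave -0.23, Pgk1, phosphoglycerate kinase, 0.10, and Pkm, pyruvate kinase, -0.04.

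The listed level of some of these transcripts is uncertain, because reads from them match many processed pseudogenes and how such reads were counted is not stated in the sources used here. Gapdh is among the most abundant transcripts of most tissues, yet its row held 7.02, 6.60 and 4.98 CPM in LC ventricles and 5.78, 2.65 and 4.02 CPM in CMNKO ventricles. In the GENCODE vM21 transcripts, 82.5% of its 50-base windows were also found in other genes, 213 of which are pseudogenes. The 49 Gapdh-sharing pseudogenes with a row of their own summed to 88.3 ± 18.5 CPM in LC ventricles and 70.6 ± 3.43 CPM in CMNKO ventricles (SD, n = 3 and 3), well above the Gapdh row itself. The most widely shared coding window of Gapdh is printed to show how a read can fail to tell them apart, and it was found in 84 other genes.
Gapdh: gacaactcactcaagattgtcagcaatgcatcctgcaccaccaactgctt

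Eno1 (72.2% of windows shared), Pgk1 (68%) and Pgam1 (41.5%) followed. Per kb of transcript Gapdh had 4.37, Pgam1 5.96, Pgk1 49.9 and Eno1 55.3 CPM in LC mice, against 1353 for Aldoa, 1043 for Eno3 and 523 for Pkm, and the latter shared 34.4% of its windows. For Ldhb and Ldha the shares were 27.0% and 16.6%, for Pdhb 30.3%, for Gpi1 and Pfkfb2 25.3% and 25.1%, and for Pdk1, Slc2a4, Hk2, Pfkm, Pgam2 and Eno3 0%. The single pseudogene row that shares windows with Ldhb had 11.9 ± 1.37 CPM in LC ventricles and 8.07 ± 1.15 CPM in CMNKO ventricles, far below the Ldhb row.

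**Figure D2:**
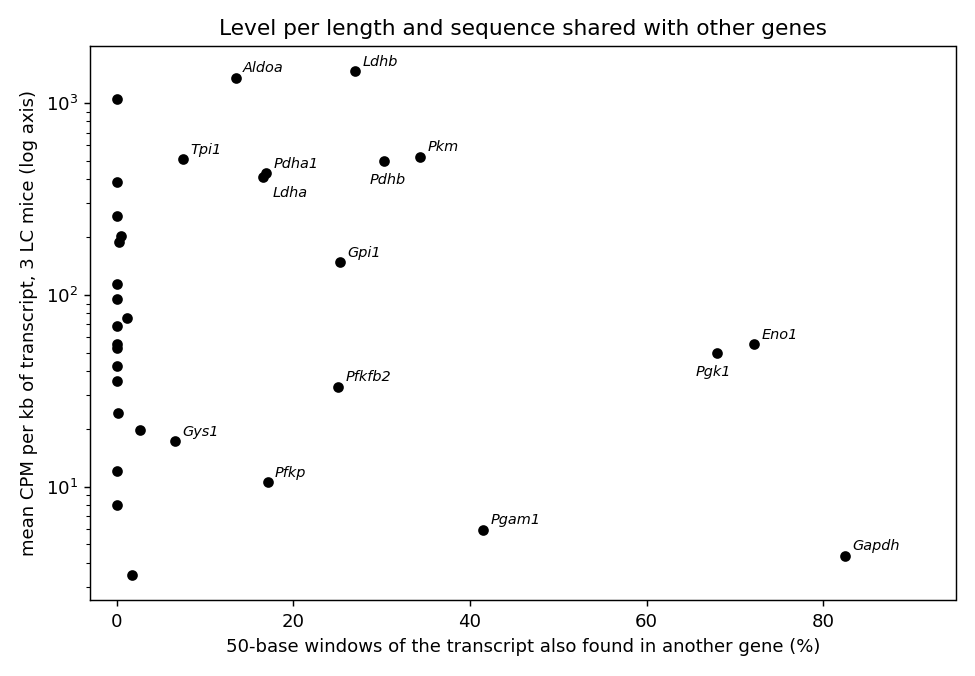
Mean CPM per kb of transcript over the 3 LC mice (log axis) against the percent of 50-base windows of the transcript that also occur in another gene, 1 point per gene. Gapdh, at 82.5% shared, has 4.37 CPM per kb, while Aldoa and Ldhb, at 13.5% and 27.0%, have 1353 and 1464 CPM per kb.

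Lactate and pyruvate handling held most of the genes whose groups did not overlap: 5 of 8 were lower in CMNKO mice and 1 was higher. Among all genes tested, 12.3% were lower and 11.2% higher with no overlap. In a further list of lactate and pyruvate genes, 3 of 19 tested were lower and 3 higher with no overlap. Of the 5 lower genes here, Ldhb, Pdha1, Pdhb and Pdk1 were also highest in the LC mice of the second library series, and Ldha was not. Ldhb, the heart subunit of lactate dehydrogenase and in LC mice the most abundant of these transcripts per length, had 1778, 1926 and 2021 CPM in LC ventricles and 1412, 1321 and 1425 CPM in CMNKO ventricles. Ldha, the muscle subunit, had 732, 671 and 833 CPM in LC ventricles and 557, 514 and 606 CPM in CMNKO ventricles. The subunits thus had similar log2 fold changes, -0.46 for Ldhb (SE 0.13, adjusted p = 0.112) and -0.41 for Ldha (SE 0.13, adjusted p = 0.151), and neither passed. Both kept their direction within the first series, at -0.36 and -0.39, and their ratio was close in the groups, with a log2 Ldhb to Ldha ratio of 1.36 ± 0.14 in LC mice and 1.31 ± 0.07 in CMNKO mice (SD, n = 3 and 3). Slc16a1, the monocarboxylate transporter that carries lactate and pyruvate across the plasma membrane, was apart in the other direction by a margin of a few CPM, with 239, 234 and 228 CPM in LC ventricles and 243, 246 and 255 CPM in CMNKO ventricles. Its log2 fold change was 0.09 (95% interval -0.16 to 0.33) and was 0.05 with the series as a term. Of 8 skeletal muscle markers 5 had a row, without Myh1, Myh2 and Myh4, and they summed to 2784 to 3534 CPM in LC ventricles and 2150 to 2597 CPM in CMNKO ventricles, mostly from Ckm, which the heart also expresses. Their part in the lower lactate dehydrogenase values was not tested.

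Among the subunits of pyruvate dehydrogenase none was called. Pdha1 and Pdhb, which form its E1 component, stood at 1103, 1273 and 1286 CPM and at 684, 750 and 827 CPM in LC mice. In CMNKO mice they stood at 1010, 960 and 1044 CPM and at 634, 641 and 666 CPM. Every CMNKO mouse was below every LC mouse for both, but LC 15 was the nearest to the CMNKO mice, and the log2 fold changes of -0.28 (adjusted p = 0.263) and -0.22 (adjusted p = 0.355) did not pass and were -0.14 and -0.08 with the series as a term. Dlat, the E2 component, had 289, 188 and 194 CPM in LC ventricles and 268, 297 and 337 CPM in CMNKO ventricles, with a log2 fold change of 0.43 (SE 0.18, adjusted p = 0.226) that was 0.06 with the series as a term. The other subunits, read from the list of pathway genes and named after their values were seen, are the E3 component Dld, with 432, 519 and 524 CPM in LC ventricles and 388, 383 and 395 CPM in CMNKO ventricles (log2 fold change -0.34, adjusted p = 0.192), and Pdhx, the E3-binding protein, at -0.03. Against LC 15 alone the log2 ratio was -0.15 for Dld and 0.12 for Pdhx. Pdk2, the kinase isozyme with the widest expression, had 331, 160 and 149 CPM in LC ventricles and 219, 280 and 362 CPM in CMNKO ventricles, with LC 15 inside the CMNKO range. Its log2 fold change was 0.43 (adjusted p = 0.418) and turned to -0.20 with the series as a term.

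Glycogen genes gave 0 calls and 0 genes with groups apart. Gys1, the muscle glycogen synthase, had 104, 39.7 and 46.8 CPM in LC ventricles and 84.8, 90.3 and 100 CPM in CMNKO ventricles. Pygm, the muscle glycogen phosphorylase, had 826, 452 and 471 CPM in LC ventricles and 672, 793 and 948 CPM in CMNKO ventricles. For both, the synthetic and the degrading enzyme, LC 25 and LC 26 were below all other mice and LC 15 was within or above the CMNKO mice. Their log2 fold changes of 0.53 for Gys1 (SE 0.29, adjusted p = 0.340) and 0.46 for Pygm (SE 0.23, adjusted p = 0.290) turned to -0.19 and -0.04 with the library series as a term. Pygb, the brain phosphorylase, had 919, 689 and 614 CPM in LC ventricles and 737, 812 and 943 CPM in CMNKO ventricles. Gyg, which primes glycogen, Gbe1, the branching enzyme, and Ugp2, which makes the UDP-glucose that glycogen synthase uses, gave log2 fold changes of -0.05, 0.06 and 0.23, which were 0.029, 0.29 and 0.49 with the series as a term. Pygm and Pygb reads are separable almost everywhere, since only 0.5% and 0.3% of their windows were shared. Their transcripts hold the same coding bases in the stretch printed here, which begins at base 945 of the Pygm transcript and at base 998 of the Pygb transcript.
Pygm and Pygb: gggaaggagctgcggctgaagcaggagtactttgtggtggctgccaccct

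A split among the LC mice ran through many of these values. LC 25 and LC 26 were both below the other 4 libraries for 14 of 33 genes and both above them for 6, against 22.9% and 20.7% of all genes tested. LC 15 lay within the CMNKO range for 14 of the 33, as it did for 43.9% of all genes. The 14 low genes included 3 of 4 genes of uptake and phosphorylation (Slc2a4, Hk1 and Hk2), and 3 of 6 of glycogen (Gys1, Pygm and Pygb). The 6 high ones were Pfkfb2, Eno1, Ldhb, Pdha1, Pdhb and Pdk1. Thus 5 of the 7 genes with CMNKO mice all below LC mice were also highest in LC 25 and LC 26, the exceptions being Tpi1 and Ldha. The ratio of LC 25 and LC 26 to LC 15 moved with the GC content of the transcript, with a Spearman's rho of -0.70 over the 33 genes and -0.44 over 12622 genes, a description without a test, as the points share libraries and their depth. The median GC content was 54.65% for the 14 low genes, 46.4% for the 6 high ones and 51.5% for the other 13. Markers of some other cell types were low in the same 2 mice and those of others were not. The 5 fibroblast markers summed to 583 and 631 CPM in LC 25 and LC 26 against 1129 to 1562 CPM in the other 4 mice, the 6 endothelial ones to 360 and 344 against 476 to 638 CPM, the 3 smooth muscle ones to 44.5 and 30.1 against 71.0 to 102 CPM, and 3 of 4 macrophage markers (Adgre1 had no row) to 50.6 and 37.6 against 68.3 to 93.5 CPM. In the same order, the 4 red cell markers summed to 354 and 414 CPM in LC 25 and LC 26 against 252 to 290 CPM, 2 of 3 atrial markers (Sln had no row) to 5.46 and 4.45 against 1.40 to 2.88 CPM, and the skeletal muscle markers to 2784 and 3534 against 2150 to 2957 CPM. The 4 adipocyte markers, 0 of them tested, summed to 0.16, 0 and 0 CPM in LC mice and 4.44, 3.07 and 0.25 CPM in CMNKO mice. None of the tested markers was called. What part the GC content, the mitochondrial share, the other cell types or the library series had in the fold changes was not tested. With LC 15 as the only control, 12 of the 33 log2 fold changes changed sign and their median was -0.08. CMNKO mice were then all higher than LC 15 for 5 of the 33 genes and all lower for 14, against 28.3% and 27.8% of the 13706 genes tested in that setting, shares that are larger than in 3 against 3 because a single control leaves less room for overlap. Without LC 15, 17 of the 33 genes passed (11 higher and 6 lower), as did 2624 of 13495 genes in all. LC 25 and LC 26 were then the only controls, so that genotype and library series cannot be told apart in these counts.

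**Figure D3:**
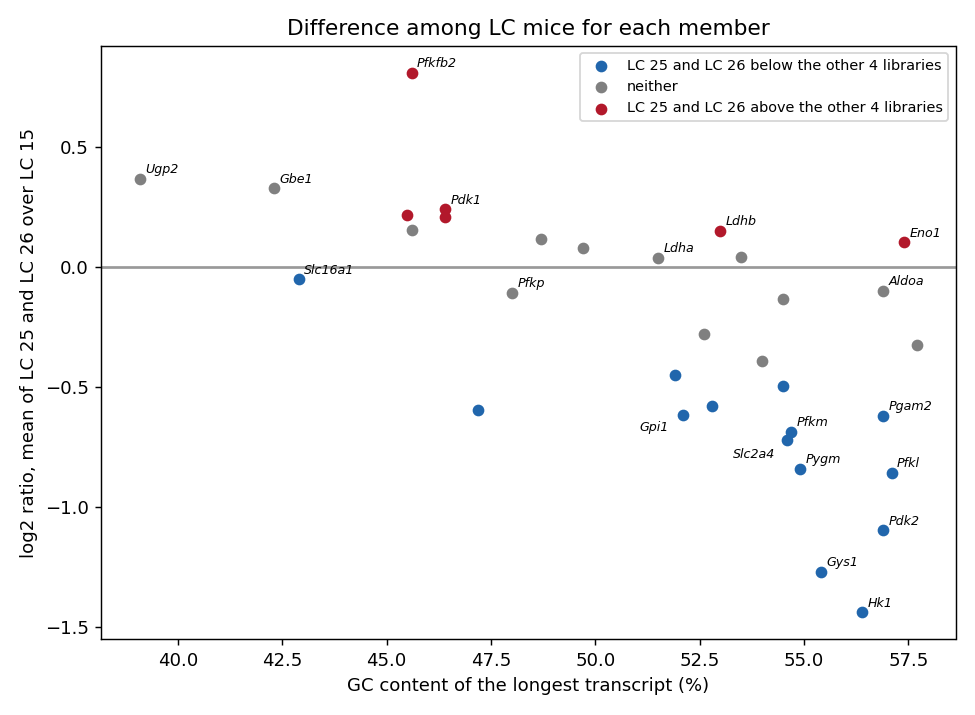
Log2 ratio of the mean CPM of LC 25 and LC 26 to the CPM of LC 15 against the GC content of the longest transcript, 1 point per gene for 33 genes. Hk1, Gys1 and Pdk2 are lowest, at -1.44, -1.27 and -1.10 with a GC content of 55.4% to 56.9%, and Pfkfb2 is highest at 0.81.

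**Figure D4:**
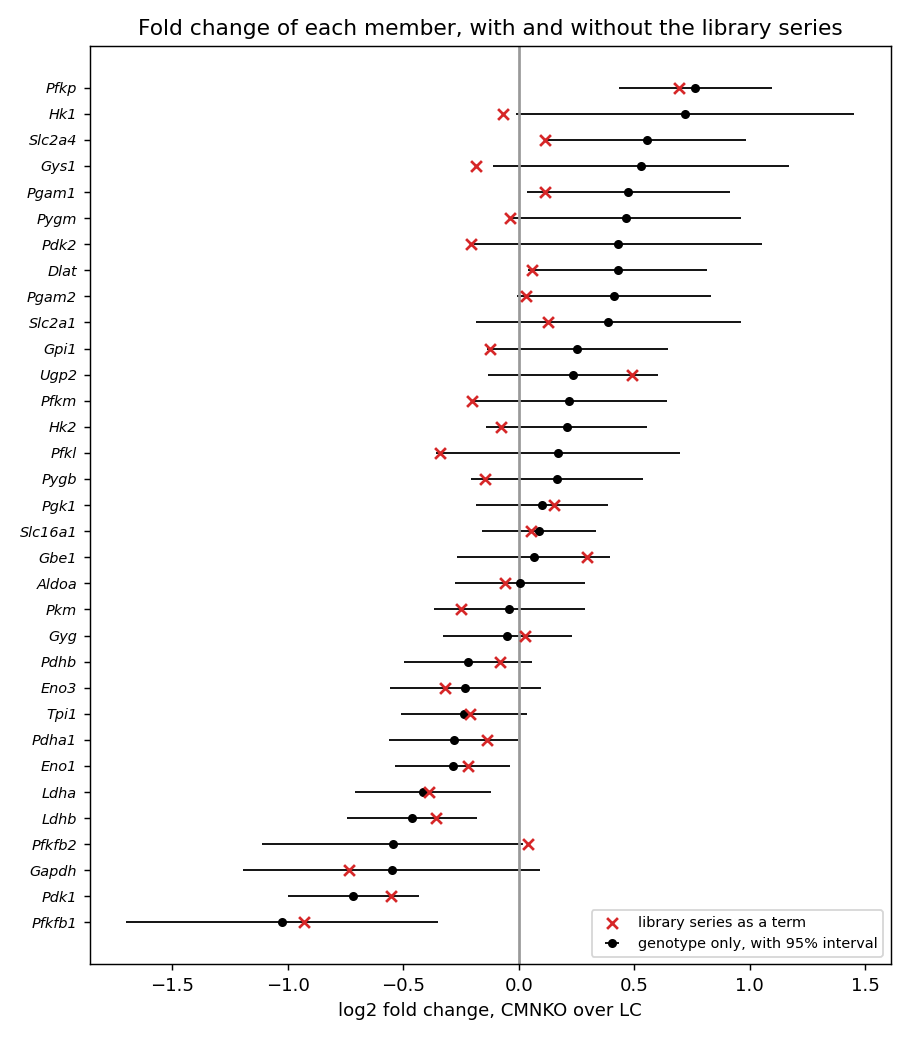
Log2 fold change of CMNKO over LC for each gene with its 95% interval (black) and with the library series as a term (red crosses, which carry no interval). Hk1, Gys1, Pygm and Pdk2 cross 0, whereas Pdk1 goes from -0.71 to -0.55 and Pfkp from 0.76 to 0.69.

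Isozyme use was compared within each library for 10 pairs, the pair with Aldoc not being measurable. With 3 mice against 3 the exact two-sided permutation test cannot give a p under 0.10, so no pair could pass. The groups were apart for 2 of the 10 pairs. The log2 ratio of Pdk2 to Pdk1 was 1.00, -0.29 and -0.37 in LC mice and 1.11, 1.24 and 1.60 in CMNKO mice, a difference of 1.21 (exact p = 0.10, Benjamini-Hochberg p = 0.50 over the 10 pairs). LC 15 was close to CMNKO 16, and against LC 15 alone the difference was 0.32. The log2 ratio of Pygm to Pygb was -0.15, -0.61 and -0.38 in LC mice and -0.13, -0.03 and 0.01 in CMNKO mice, a difference of 0.33 with the same p-values that was 0.10 against LC 15 alone. Hk2 to Hk1 was 0.97, 2.13 and 1.77 in LC mice and 1.07, 0.94 and 0.90 in CMNKO mice, so that LC 15 was within the CMNKO range (difference -0.65, exact p = 0.20).

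**Figure D5:**
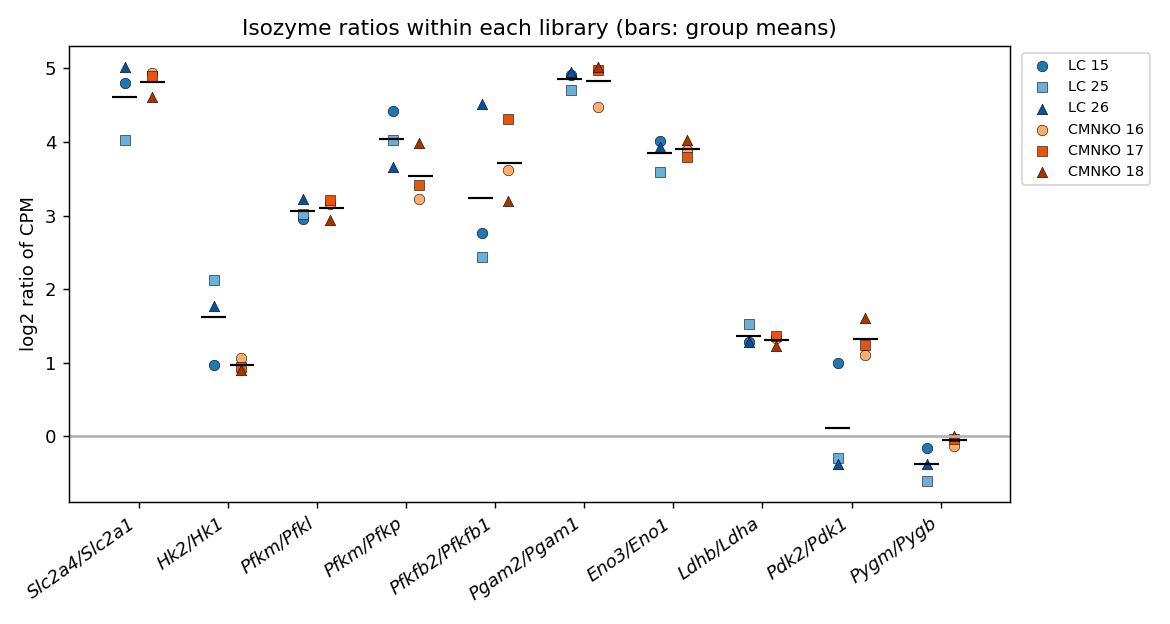
Log2 ratio of the CPM of 2 isozymes in each mouse for 10 pairs, with short bars at the group means. For Pdk2/Pdk1 and Hk2/Hk1 the LC 15 point lies with the CMNKO points, and LC 25 and LC 26 stand apart.

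Other genes of the same pathways were read from 5 lists. In glucose transport and glycolysis, 18 of 25 listed genes were tested, with 0 called higher and 1 lower. This was Fbp2, the muscle fructose 1,6-bisphosphatase that opposes phosphofructokinase, with 38.4, 37.8 and 30.2 CPM in LC ventricles and 13.9, 13.4 and 16.6 CPM in CMNKO ventricles. All CMNKO mice were below all LC mice, with a log2 fold change of -1.27 (SE 0.16, adjusted p = 0.00845 by edgeR), and the call was kept with the series as a term (-1.39, adjusted p = 0.0158). The Fbp2 call was lost without CMNKO 16 (-1.24, adjusted p = 0.0862) or CMNKO 17 (-1.22, adjusted p = 0.0781). In both of these settings no gene at all was called, Ncor1 included. Among 19 tested of 23 listed genes of lactate and pyruvate, 1 was higher and 0 lower. This was Pdk4, the PDK isozyme induced by fasting and fatty acids, with 204, 213 and 265 CPM in LC ventricles and 504, 334 and 544 CPM in CMNKO ventricles. Its log2 fold change was 1.02 (SE 0.19, adjusted p = 0.0399 by edgeR). Against LC 15 alone, within the first series, the log2 ratio was 1.17, no smaller than with all LC mice. With the series as a term the estimate also rests on LC 15 as the control, so its 1.17 is the same comparison. Pdk4 was not called in that fit (adjusted p = 0.134). Leaving out any mouse but LC 15 also ended the call (values from 0.88 to 1.21, adjusted p from 0.0598 to 0.209). In all, Pdk4 was called in 10 of 16 settings of the fit. Pdk4 and Pdk1 thus moved in opposite directions in the comparison of 3 with 3.

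The remaining lists gave 0 calls in either direction. For glycogen, 23 of 26 genes were tested, and those with the smallest p were Pygl, the liver phosphorylase (log2 fold change -1.13, at 1.51 to 5.24 CPM), Gaa, the lysosomal glucosidase (0.54), and Phka2, a phosphorylase kinase subunit (-0.34). With the library series as a term Pygl was at -0.54, Gaa at 0.016 and Phka2 at -0.26. For the pentose phosphate, polyol and hexosamine branches, 20 of 22 were tested. Of these, 8 had an unadjusted p under 0.05 by edgeR (3 higher and 5 lower), against 2463 of all 13040 genes tested. Gfpt2, an enzyme of hexosamine synthesis, had 5.30, 4.67 and 4.85 CPM in LC ventricles and 9.67, 7.13 and 9.17 CPM in CMNKO ventricles (adjusted p = 0.0989, edgeR). The polyol enzymes Akr1b3, aldose reductase, and Sord, sorbitol dehydrogenase, had log2 fold changes of -0.46 and -0.44 with the groups apart (adjusted p = 0.104 and 0.138). With the series as a term Gfpt2 went from 0.81 to 0.71, and Akr1b3 and Sord were at -0.37 and -0.43. For signalling to glucose uptake, 29 of 29 were tested and 7 had an unadjusted p under 0.05 (5 higher and 2 lower), against the same 2463 of 13040. The smallest p-values were those of the insulin receptor substrates Irs2 (log2 fold change 1.46) and Irs1 (0.61) and of Prkag2, a regulatory subunit of AMP-activated kinase (-0.51), with adjusted p from 0.145 to 0.162. With the series as a term they were 0.91, 0.95 and -0.71. These lists were chosen with earlier results of the data known, and their counts are a description.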

How the data were processed

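Left ventricles of 3 LC and 3 CMNKO mice were sequenced, 1 library per mouse. The authors deposited raw read counts per gene symbol, whole numbers and not normalized, from reads aligned to mm8, the build that the submitters' processing notes name. The sources used here do not state the aligner or the counting step. The authors' group means, fold changes and FDR values were not used, and 0 per-sample columns were left unused. Counts were fitted in R 4.3.3 with edgeR 4.0.16 (filterByExpr, TMM, quasi-likelihood F-test, genotype as the only term, two-sided) over 13040 of 17121 genes, with Benjamini-Hochberg adjustment. The fit was checked on simulated counts with seeded changes between genotypes. These counts held no difference between library series, so the check does not cover that split. The p-values set the group difference against the spread between these mice, which in the LC group also holds any difference between the library series. Alternatives were upper-quartile scaling, library totals only, DESeq2 1.42.0, limma-voom (limma 3.58.1), no filter, a filter of 20 counts in 3 libraries, the library series as a term, the first series alone, no mitochondrially encoded genes, and each mouse left out. Isozyme ratios used CPM plus 0.5. GC content (12625 genes matched) came from the longest transcript of each gene in GENCODE vM21, and the 50-base windows and the lengths behind CPM per kb from its longest protein-coding transcript, on GRCm38, a build other than that of the counts, so that gene positions are printed only for RefSeq promoters of GRCm38.p6. Named are every gene of the set, genes of the other lists past the threshold or else the 3 with the smallest p, and Ncor1. The genes were listed by function, and they, the lists and the tests were chosen with earlier results of these data known.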

Additional observations from a re-analysis of the deposited data

How the results depend on the processing

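The 33 genes gave 1 call under TMM scaling, and which genes passed moved with the setting. Over all genes there were 79 calls. Other settings gave 128 (upper-quartile scaling), 44 (library totals only), 361 (DESeq2), 22 (library series as a term) and 51 (first series alone). Among the 33 genes, 1 was called higher with upper-quartile scaling (Pfkp), and 1 higher and 3 lower by DESeq2 (Pfkp, with Ldhb, Pfkfb1 and Pdk1 lower). None was called lower with library totals only, with the series as a term or in the first series alone (0 each). When only library totals were used, the median over all genes was 0.12 and that of the 33 genes 0.23, 4 genes were higher with the groups apart, and Pkm (0.074) and Gyg (0.076) changed sign. Aldoa became -0.028 with upper-quartile scaling. Pdk1 kept its direction under 15 of 15 alternatives and its call under 7.

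With the library series as a term, and in the first series alone, the median of the 33 log2 fold changes was -0.079, and 12 changed sign: Hk1 (-0.070), Hk2 (-0.076), Gpi1 (-0.13), Pfkm (-0.20), Pfkl (-0.34), Pfkfb2 (0.042), Aldoa (-0.061), Pdk2 (-0.20), Gys1 (-0.19), Gyg (0.029), Pygm (-0.039) and Pygb (-0.15). In the first series alone 5 genes were higher and 14 lower with the groups apart (28.3% and 27.8% of all genes), and the isozyme differences became 0.0019 for Hk2/Hk1, -0.10 for Eno3/Eno1 and 0.031 for Ldhb/Ldha.

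With each mouse left out in turn, calls over all genes ran from 0 to 2624, those among the 33 genes from 0 to 11 higher and from 0 to 6 lower, and genes higher with the groups apart from 2 to 15, the high ends all without LC 15. Without LC 15, genotype and library series cannot be told apart. The 0 calls over all genes came without CMNKO 16 or CMNKO 17, where edgeR still gave 1829 and 1675 genes at an unadjusted p under 0.05. Signs were not kept for Pkm (-0.15 to 0.073), Gbe1 (-0.039 to 0.18), Pfkl (-0.029 to 0.51), Aldoa (-0.035 to 0.035) and Gyg (-0.11 to 0.050), nor for the ratios Pfkm/Pfkl (-0.019 to 0.12), Slc2a4/Slc2a1 (-0.098 to 0.40), Eno3/Eno1 (-0.066 to 0.14), Ldhb/Ldha (-0.089 to 0.032) and Pgam2/Pgam1 (-0.12 to 0.14). The cause of these changes was not tested. No paired analysis was possible because the labels give neither litters nor pairs of LC and CMNKO mice. Ratios within a library need no count model, so DESeq2, limma-voom, the filters and the series term were not run on them.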
